A study of Arabidopsis thaliana with 18 samples.

Results

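The UGT genes of Arabidopsis thaliana encode UDP-glycosyltransferases, and 105 of the 27655 genes counted carry a name of that kind, made of UGT, a family number, a letter and a gene number. Membership was set by name alone, and the choice was made with earlier results of these data known. They fall into 20 families by UGT number, of which UGT76 (19 genes), UGT71 and UGT73 (13 each) and UGT79 (10) hold the most. Transcripts were measured in whole rosettes at day 32 in 6 groups of 3 libraries: drought and control plants of JAR1-OE (a line labelled as overexpressing JAR1.1, in an expression the series title calls constitutive), of jar1-11 (SALK_034543, labelled a knockdown of JAR1) and of wild-type Col-0 (WT). Control plants were watered throughout, and drought plants were watered for 18 days and then received no water for 14 days. All plants grew under long days. The labels speak of biological replicates without saying how many plants each held, so p-values measure the spread between libraries, and each altered genotype is a single line.

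A UDP-glycosyltransferase moves a sugar, most often glucose, from a UDP-sugar to a small molecule, which makes the acceptor more soluble and often inactive or ready for storage in the vacuole. Acceptors include plant hormones, flavonoids, phenylpropanoids, glucosinolate precursors, sterols and foreign compounds. JAR1 joins jasmonic acid to isoleucine, and the conjugate is the hormone form that the jasmonate receptor binds, so jar1-11 and JAR1-OE alter a step of hormone conjugation that is separate from glucosylation.

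Library totals ran from 4716155 to 9506727 reads on genes. Levels are given as CPM, counts per 1e6 reads scaled by TMM, a normalization for library composition, and not divided by gene length. JAR1 was at 3, 1.6 and 3.95 CPM in jar1-11 drought libraries and 6.66, 5.31 and 5.25 CPM in jar1-11 control libraries, against 32.8, 40.8 and 26.2 CPM in WT drought libraries and 22.2, 23.7 and 30.3 CPM in WT control libraries. It was lower in jar1-11 in both conditions (log2 fold change -3.59 ± 0.27, adjusted p = 6.57e-07 under drought, log2 fold change -2.14 ± 0.24, adjusted p = 5.93e-04 under control conditions). The JAR1 gene itself did not pass the test in JAR1-OE, where a separate YFP-JAR1 entry held 558, 26 and 147 reads (72.6, 4.21 and 20.2 CPM) in the drought libraries, against 214, 88 and 307 reads (30.8, 14.7 and 37.5 CPM) in the control libraries, with overlap, and 0 reads in the other 12 libraries. The 4 leaf markers were present in every group, and their summed level was 458 to 603 CPM in jar1-11 drought libraries, 1376 to 1877 CPM in WT drought libraries and 4111 to 5890 CPM in JAR1-OE drought libraries, against 4609 to 6192 CPM, 5737 to 7531 CPM and 10617 to 16612 CPM in the control libraries of jar1-11, WT and JAR1-OE. Summed flower markers reached 12.3 to 39.9 CPM in JAR1-OE drought libraries and 41.1 CPM in WT drought library 1, against 0.253 to 5.75 CPM in the other 14 libraries. In whole rosettes, fewer cells of a type and less RNA per cell cannot be told apart.

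Plant UDP-glycosyltransferases are recognised by the PSPG box, a stretch of 44 residues near the C terminus that holds the UDP-sugar. A search of the coding sequences in RefSeq TAIR10.1 for the pattern W, 17 residues, HCGW, 1 residue, S, 19 residues and Q found it in 79 of the 105 genes. The pattern allows no departure, so the 26 without a match, among them UGT78D1, UGT79B2 and UGT87A2, cannot be said to lack the box. The DNA that encodes the box is shown for 3 pairs of neighbouring genes of similar coding sequence, whose drought responses are described below. Capitals mark the codons of HCGW, the residue after it and the serine.
UGT73C3: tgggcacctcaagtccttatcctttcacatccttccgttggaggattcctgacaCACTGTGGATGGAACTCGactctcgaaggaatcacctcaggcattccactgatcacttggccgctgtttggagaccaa
UGT73C4: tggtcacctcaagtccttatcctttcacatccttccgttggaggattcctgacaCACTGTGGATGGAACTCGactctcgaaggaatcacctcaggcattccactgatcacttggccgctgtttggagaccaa
UGT74E1: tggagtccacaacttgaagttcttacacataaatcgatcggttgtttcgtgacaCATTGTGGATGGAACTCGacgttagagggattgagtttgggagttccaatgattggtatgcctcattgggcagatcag
UGT74E2: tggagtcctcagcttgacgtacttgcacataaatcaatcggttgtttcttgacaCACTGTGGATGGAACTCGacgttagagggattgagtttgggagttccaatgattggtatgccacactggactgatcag
UGT76E11: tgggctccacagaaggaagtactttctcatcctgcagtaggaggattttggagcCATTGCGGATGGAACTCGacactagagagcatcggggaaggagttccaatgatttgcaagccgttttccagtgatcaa
UGT76E12: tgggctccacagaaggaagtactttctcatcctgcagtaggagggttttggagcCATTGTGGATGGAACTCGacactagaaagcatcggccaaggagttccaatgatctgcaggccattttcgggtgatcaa
All 6 lie on the minus strand of TAIR10.1 and are uninterrupted by introns, at chr2:15417912-15418043 and chr2:15415521-15415652, chr1:1701453-1701584 and chr1:1703436-1703567, and chr3:17193029-17193160 and chr3:17189640-17189771. Of the 132 bases, UGT73C3 and UGT73C4 differ in 1, UGT74E1 and UGT74E2 in 12, and UGT76E11 and UGT76E12 in 10. Over the whole coding sequence the pairs are 91.3%, 89.5% and 89.1% identical.

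With 20 reads over the 18 libraries as the minimum, 83 of the 105 genes in 18 of the 20 families were tested. Of the 22 left out, 11 had 0 reads in every library: UGT72E3, UGT73B4, UGT76C3, UGT76E2, UGT79B4, UGT79B10, UGT79B11, UGT82A1, UGT83A1, UGT84B1 and UGT84B2. A further 11 had 1 to 19 reads in all, namely UGT71B8, UGT73C2, UGT75B2, UGT76D1, UGT76E5, UGT78D3, UGT78D4, UGT79B3, UGT79B5, UGT79B6 and UGT84A1. UGT73B4 lies wholly inside the annotated span of UGT73B5 (chr2:6761635-6763500 within chr2:6758430-6763501, both on the plus strand), and their 3' ends are 1 base apart. Reads of the pair cannot be told apart, so the 0 of UGT73B4 gives no level for it, and every value given here for UGT73B5 may include UGT73B4. UGT71C4 and UGT71C3 overlap by 15 bases at their 3' ends on opposite strands. Whether the counts were made by strand is not known here, so a few reads of this pair may be shared. Closest to the limit were UGT76D1 with 19 reads and UGT90A2 with 20. Because each read comes from the 3' end of a transcript, the last 400 bases of each gene were searched for stretches of 50 bases, the read length, found nowhere else in the genome. All such stretches were unique in 87 of the 105 genes, and outside the UGT73B4 and UGT73B5 locus the lowest share was 84.6%, for UGT71D1 and UGT71D2. The search does not separate genes whose spans overlap.

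Measured as a whole, UGT transcripts were most abundant in drought-treated jar1-11. The summed level of the 105 genes was 2111 to 2541 CPM in jar1-11 drought libraries, against 1288 to 1373 CPM in jar1-11 control libraries, with no overlap. It was 1247 to 1502 CPM in JAR1-OE drought libraries, against 990.3 to 1135 CPM in JAR1-OE control libraries, again with no overlap. In WT the ranges overlapped, at 1360 to 1613 CPM under drought and 1323 to 1753 CPM under control conditions. The leading gene changed with treatment. UGT85A2 was highest in all 9 control libraries, UGT87A2 in the 3 jar1-11 drought libraries, UGT71C4 in the 3 WT drought libraries and in 2 of the JAR1-OE drought libraries, and UGT88A1 in the third. Divided by gene length, taken as the annotated span with introns, UGT71C4 and UGT87A2 had the highest mean values over the 18 libraries, at 51.8 and 48.4 CPM per kb. As each read comes from the 3' end of a transcript, counts need not grow with gene length. The order after this division is therefore not an order of abundance.

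Drought changed a large share of the family in each genotype. Tests are edgeR quasi-likelihood F-tests on counts, with Benjamini-Hochberg adjustment over the 19752 genes tested and a threshold of 0.05, and changes are log2 fold changes ± SE. In JAR1-OE 24 members rose and 7 fell (28.9% and 8.43% of 83), against 12.4% of all genes tested that rose and 13.6% that fell (26.0% in all). In jar1-11 41 members rose and 13 fell (49.4% and 15.7%), against 25.9% and 27.7% of all genes (53.5% in all). Of the 41, 6 reached the minimum of 20 reads only with the reads of the jar1-11 drought libraries (UGT76E6, UGT79B9, UGT90A2, UGT91A1, UGT91B1 and UGT91C1), so their calls follow in part from the filter. In WT 23 rose and 17 fell (27.7% and 20.5%), against 16.6% and 18.8% of all genes (35.4% in all). The median change over the 83 members was 0.40 in JAR1-OE, 1.01 in jar1-11 and 0.36 in WT, beside 0.00, -0.03 and 0.00 over all genes tested. The 3 comparisons use different libraries on both sides. Leaf marker sums were lower in the drought than in the control libraries of each genotype, as given above, and their part in these counts was not tested.

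**Figure D1:**
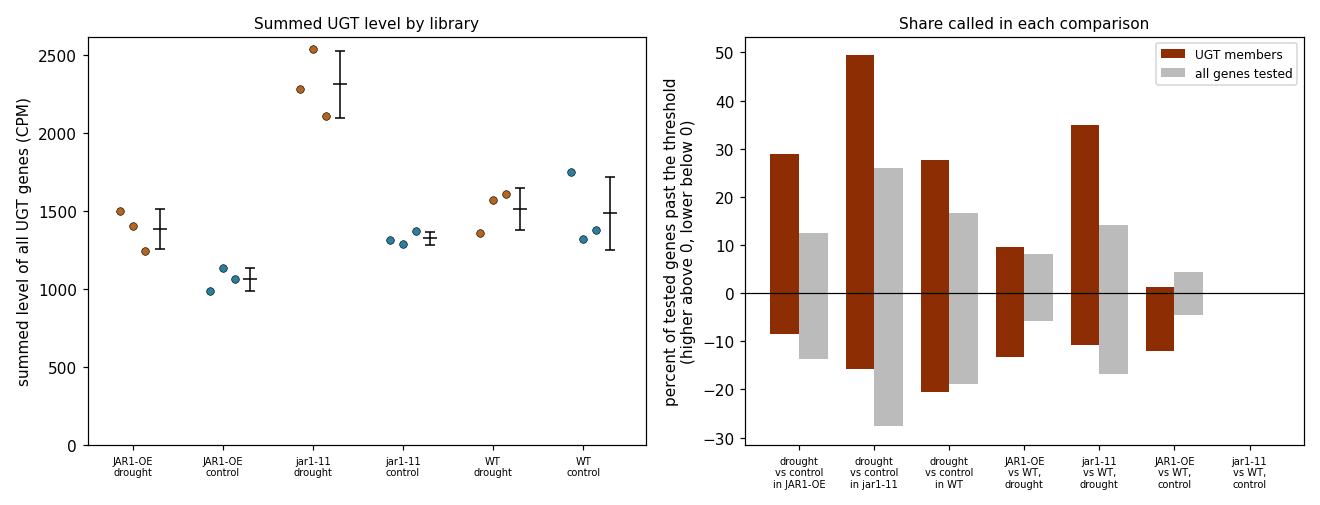
Left, summed level of the 105 UGT genes in CPM for each library (points), with the mean ± SD of each group of 3 beside them; the 3 jar1-11 drought libraries, at 2111 to 2541 CPM, stand above the other 15. Right, percent of the 83 UGT genes tested and of the 19752 genes tested that passed the threshold in each comparison, higher above 0 and lower below 0; in drought against control the UGT share that rose exceeds the share of all genes in each genotype, with 49.4% beside 25.9% in jar1-11.

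Of the 83 members, 14 rose in all 3 genotypes (16.9%, beside 6.72% of all genes tested): UGT71C4, UGT73B3, UGT73B5, UGT73C4, UGT73C5, UGT75C1, UGT76E12, UGT78D2, UGT79B2, UGT84A3, UGT85A5, UGT87A2, UGT89B1 and UGT90A1. They come from 11 families. Those that fell in all 3 numbered 4 (4.82%, beside 8.11% of all genes): UGT74D1, UGT84A4, UGT85A4 and UGT86A2. No call was made in any genotype for 18 members (21.7%, beside 34.9% of all genes). UGT71D2 and UGT88A1 rose in one genotype and fell in another (2.41%, beside 1.45% of all genes). UGT71D2 is a gene of few reads that fell in JAR1-OE, at 0.388, 0.159 and 0.271 CPM under drought, against 1.45, 2.09 and 0.646 CPM under control conditions (log2 fold change -2.23 ± 0.74, adjusted p = 0.0317), and rose in jar1-11 (adjusted p = 0.00299), where the control libraries held 1 read. The UGT71D2 call in JAR1-OE was lost without JAR1-OE control 1 or 2 or JAR1-OE drought 1, 2 or 3 (adjusted p up to 0.121), and it did not pass without a filter on low counts (adjusted p = 0.053) or with DESeq2 (adjusted p = 0.0533). The UGT86A2 call in JAR1-OE was lost without JAR1-OE control 1 or 3 or JAR1-OE drought 2 or 3 (adjusted p up to 0.104). The UGT86A2 call in WT was lost without WT control 3 (adjusted p = 0.0521).

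**Figure D2:**
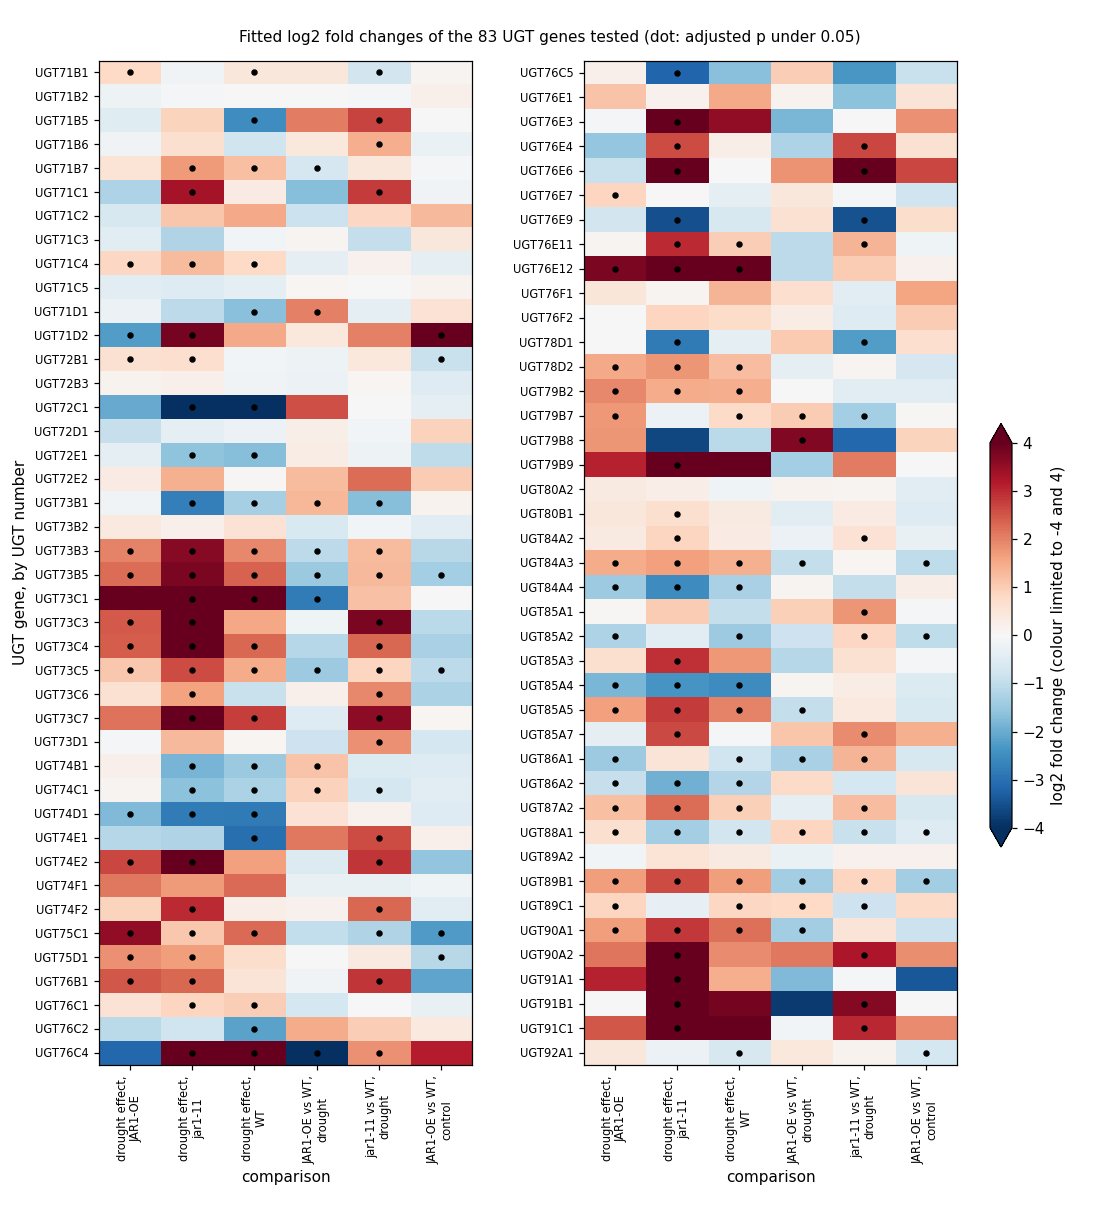
Fitted log2 fold changes of the 83 UGT genes tested, in UGT number order, for drought against control in JAR1-OE, jar1-11 and WT, then for JAR1-OE and jar1-11 against WT under drought and JAR1-OE against WT under control conditions; red is higher and blue lower in the first-named group, and a black dot marks an adjusted p under 0.05. Dots are densest in the jar1-11 drought column, with 54 of 83 members, and sparsest in JAR1-OE against WT under control conditions, with 11.

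The 250 bases upstream of each gene start were searched on both strands for 3 short motifs, as a description of letters only. ACGTG, the core of the abscisic acid response element, was present upstream of 5 of the 14 members that rose in all genotypes (35.7%), 30.1% of the 83 tested and 22.9% of 27443 nuclear protein-coding genes. ACGTG was also upstream of 2 of the 4 members that fell in all genotypes and 3 of the 18 without a call. Among the 41 that rose in jar1-11 the share was 29.3%. TTGAC, the core that WRKY factors bind, was present upstream of 8 of the 14 (57.1%), 53.0% of the 83 and 44.9% of all. TTGAC was also upstream of 3 of the 4 that fell, 8 of the 18 without a call and 53.7% of the 41. CACGTG, the G-box, contains ACGTG and was present upstream of 0 of the 14 and 6.49% of all. The upstream windows of UGT76E12 and UGT90A1, which rose in each genotype, show ACGTG or its reverse complement in capitals, written along the gene's own strand.
UGT76E12: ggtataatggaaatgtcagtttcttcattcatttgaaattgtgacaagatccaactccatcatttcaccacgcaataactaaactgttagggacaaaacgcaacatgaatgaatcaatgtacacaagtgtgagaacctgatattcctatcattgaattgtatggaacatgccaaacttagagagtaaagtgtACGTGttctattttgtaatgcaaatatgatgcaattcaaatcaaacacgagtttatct
UGT90A1: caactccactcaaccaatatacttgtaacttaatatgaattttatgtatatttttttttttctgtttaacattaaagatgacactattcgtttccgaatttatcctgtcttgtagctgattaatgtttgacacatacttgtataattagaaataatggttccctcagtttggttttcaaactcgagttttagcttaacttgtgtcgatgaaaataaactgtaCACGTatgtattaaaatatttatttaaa
They lie at chr3:17191168-17191417 on the minus strand and chr2:7316539-7316788 on the plus strand of TAIR10.1 (RefSeq).

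Among the genes of flavonoid and anthocyanin glycosylation, UGT75C1, UGT78D2 and UGT79B2 rose in each genotype, UGT89C1 also rose in JAR1-OE and WT, UGT73C6 also rose in jar1-11, and UGT78D1 fell in jar1-11, of 6 tested. The flavonoid list had median log2 fold changes of 1.18 in JAR1-OE, 1.28 in jar1-11 and 1.03 in WT. Beside the flavonoid counts, 12.4% of all genes tested rose and 13.6% fell in JAR1-OE, 25.9% and 27.7% in jar1-11, and 16.6% and 18.8% in WT. The list of 9 names includes UGT78D3, UGT79B3 and UGT79B6, which had too few reads. UGT75C1 (AT4G14090), the anthocyanin 5-O-glucosyltransferase, was at 30.2, 26.6 and 15.2 CPM in JAR1-OE drought libraries, against 1.16, 2.96 and 2.07 CPM in JAR1-OE control libraries (log2 fold change 3.55 ± 0.50, adjusted p = 2.93e-05). In jar1-11 it was at 24.9, 12.3 and 24.3 CPM under drought, against 15.2, 7.07 and 5.93 CPM under control conditions (log2 fold change 1.08 ± 0.41, adjusted p = 0.0347). In WT the drought libraries held 64.8, 51.9 and 25 CPM, against 5.56, 9.15 and 14.2 CPM in control libraries (log2 fold change 2.26 ± 0.42, adjusted p = 2.68e-04). The groups did not overlap in JAR1-OE and WT, and did overlap in jar1-11. UGT79B2 (AT4G27560), an anthocyanin rhamnosyltransferase, was at 77.9, 102 and 88.1 CPM in JAR1-OE drought libraries and 67.6, 62.4 and 64.5 CPM in jar1-11 drought libraries, against 24, 24.6 and 22.6 CPM and 26.1, 19.6 and 23.6 CPM in their control libraries, and rose in these and in WT by a log2 fold change of 1.92 in JAR1-OE, 1.48 in jar1-11 and 1.46 in WT. UGT78D2 (AT5G17050), which places glucose on the 3-position of flavonoids, rose by a log2 fold change of 1.52 in JAR1-OE, 1.76 in jar1-11 and 1.24 in WT. The gene for anthocyanin xylosylation, UGT79B1, is listed under another name in the files and is not among the 105, and it rose in all 3 genotypes too (log2 fold change 4.29 ± 0.67, adjusted p = 9.45e-05 in JAR1-OE, log2 fold change 1.69 ± 0.53, adjusted p = 0.011 in jar1-11, log2 fold change 2.53 ± 0.52, adjusted p = 8.23e-04 in WT). The UGT75C1 call in jar1-11 was lost without jar1-11 control 2 or 3 or jar1-11 drought 1 or 3 (adjusted p up to 0.129).

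The enzymes that add rhamnose to flavonols are UGT78D1 and UGT89C1. UGT78D1 (AT1G30530), the flavonol 3-O-rhamnosyltransferase, was at 1.35, 1.07 and 2.08 CPM in jar1-11 drought libraries, against 12.8, 11.9 and 6.27 CPM in jar1-11 control libraries, and fell (log2 fold change -2.84 ± 0.45, adjusted p = 2.77e-05). Its levels were 15.2, 12.8 and 14.6 CPM under drought and 14.7, 15.3 and 12.5 CPM under control conditions in JAR1-OE, and 12.6, 5.32 and 3.08 CPM under drought and 6.01, 8.99 and 11.5 CPM under control conditions in WT, and neither pair passed the test. The highest WT drought value, 12.6 CPM, belongs to library 1, the one with 41.1 CPM of flower markers, and the part of those markers was not tested. UGT89C1 (AT1G06000), the flavonol 7-O-rhamnosyltransferase, rose in JAR1-OE (log2 fold change 0.85 ± 0.24, adjusted p = 0.0138) and WT (log2 fold change 0.83 ± 0.27, adjusted p = 0.021) and did not pass in jar1-11 (log2 fold change -0.32 ± 0.27, adjusted p = 0.329). UGT73C6 (AT2G36790), which glucosylates flavonoids at the 7-position and brassinosteroids, rose in jar1-11 (log2 fold change 1.60 ± 0.43, adjusted p = 0.00371). The UGT89C1 call in JAR1-OE was lost without JAR1-OE control 3 or JAR1-OE drought 1 (adjusted p up to 0.0929). The UGT89C1 call in WT was lost without WT control 1 or WT drought 1 (adjusted p up to 0.0807), and it did not pass with only the groups compared in the fit (adjusted p = 0.0712).

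Of 6 tested genes for the glucosylation of hydroxycinnamates and monolignols, the acids and alcohols from which sinapate esters and lignin are made, 2 rose and 1 fell in JAR1-OE, 3 rose and 2 fell in jar1-11, and 1 rose and 2 fell in WT. The hydroxycinnamate list had median log2 fold changes of 0.34 in JAR1-OE, 0.76 in jar1-11 and -0.02 in WT. Beside the hydroxycinnamate counts, 12.4% of all genes tested rose and 13.6% fell in JAR1-OE, 25.9% and 27.7% in jar1-11, and 16.6% and 18.8% in WT. UGT84A3 (AT4G15490), which makes glucose esters of hydroxycinnamates, was at 25.6, 29 and 23.6 CPM in JAR1-OE drought libraries, against 5.08, 10.1 and 12.4 CPM in JAR1-OE control libraries (log2 fold change 1.50 ± 0.22, adjusted p = 4.95e-05). In jar1-11 UGT84A3 was at 52.6, 52.9 and 52 CPM under drought, against 16, 15.2 and 19.3 CPM under control conditions (log2 fold change 1.64 ± 0.21, adjusted p = 2.12e-06). In WT UGT84A3 was at 46.5, 48.5 and 55.7 CPM under drought, against 15.8, 18.6 and 21.1 CPM under control conditions (log2 fold change 1.43 ± 0.21, adjusted p = 2.42e-05). No drought library overlapped a control library of its genotype, and the gene rose in all 3. UGT84A4 (AT4G15500), a close relative, fell in the same 3 comparisons, with log2 fold changes of -1.45 in JAR1-OE, -2.53 in jar1-11 and -1.30 in WT and levels of at most 4.36 CPM. UGT72E1 (AT3G50740), which glucosylates coniferyl aldehyde and related lignin precursors, was at 37.4, 17 and 38.5 CPM in jar1-11 drought libraries, against 76.2, 78.1 and 127 CPM in jar1-11 control libraries (log2 fold change -1.61 ± 0.35, adjusted p = 7.26e-04). In WT UGT72E1 was at 43.4, 27.4 and 35.3 CPM under drought, against 159, 93.6 and 89.6 CPM under control conditions (log2 fold change -1.69 ± 0.35, adjusted p = 8.13e-04). In JAR1-OE it was at 36.8, 50.5 and 42.2 CPM under drought and 27.3, 75.8 and 65.1 CPM under control conditions, with overlap (log2 fold change -0.38 ± 0.34, adjusted p = 0.462). UGT72B1 (AT4G01070), which acts on monolignols and on chlorinated foreign compounds, rose in jar1-11 (log2 fold change 0.68 ± 0.19, adjusted p = 0.00449) and JAR1-OE (log2 fold change 0.60 ± 0.19, adjusted p = 0.0226). The UGT84A4 call in WT did not pass with only the groups compared in the fit (adjusted p = 0.0656). The UGT72B1 call in JAR1-OE was lost without JAR1-OE control 1 or 3 or JAR1-OE drought 2 (adjusted p up to 0.128).

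Abscisic acid, the hormone of the drought response, is inactivated by glucose ester formation. Of 4 tested genes with that activity, 1 rose and 1 fell in both jar1-11 and WT. In JAR1-OE edgeR called 0 of the 4, with 1 of them, UGT71B7, at an unadjusted p under 0.05, and DESeq2 called 1, the same gene. The abscisic acid list had median log2 fold changes of -0.13 in JAR1-OE, 0.05 in jar1-11 and -0.58 in WT. Beside the abscisic acid counts, 12.4% of all genes tested rose and 13.6% fell in JAR1-OE, 25.9% and 27.7% in jar1-11, and 16.6% and 18.8% in WT. UGT71B7 (AT3G21790) was at 119.7, 109 and 92.5 CPM in jar1-11 drought libraries, against 36.5, 29.8 and 33.2 CPM in jar1-11 control libraries (log2 fold change 1.69 ± 0.20, adjusted p = 1.03e-06). In WT UGT71B7 was at 63.9, 75.5 and 96.2 CPM under drought, against 28.3, 37.9 and 36.3 CPM under control conditions (log2 fold change 1.20 ± 0.20, adjusted p = 1.20e-04). UGT73B1 (AT4G34138), which glucosylates abscisic acid in vitro, was at 15.1, 13.4 and 9.76 CPM in JAR1-OE drought libraries, against 17.4, 9.07 and 15.1 CPM in JAR1-OE control libraries (log2 fold change -0.13 ± 0.28, adjusted p = 0.788). In jar1-11 UGT73B1 was at 1.65, 0.801 and 2.5 CPM under drought, against 12.2, 10.3 and 8.81 CPM under control conditions (log2 fold change -2.73 ± 0.37, adjusted p = 4.22e-06). In WT UGT73B1 was at 3.8, 6.08 and 5.24 CPM under drought, against 16.2, 13.4 and 8.79 CPM under control conditions (log2 fold change -1.31 ± 0.31, adjusted p = 0.00263). It fell in jar1-11 and WT with no overlap, and its groups overlapped in JAR1-OE. UGT71C5 did not pass in any genotype, with changes of -0.42 in JAR1-OE, -0.52 in jar1-11 and -0.36 in WT, and neither did UGT71B6. UGT71B6 was at 17.7, 22.2 and 9.77 CPM in jar1-11 drought libraries, against 10.7, 8.84 and 12.9 CPM in jar1-11 control libraries. In WT UGT71B6 was at 2.59, 7.22 and 8.17 CPM under drought, against 10.5, 13.1 and 8.5 CPM under control conditions. Its drought response was called higher in jar1-11 than in WT by edgeR, a call lost in 10 alternatives (adjusted p up to 0.141).

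Genes for auxin glucosylation went in both directions. Of 6 listed, 4 were tested, of which 2 rose and 1 fell in JAR1-OE and jar1-11 and 1 fell in WT. The auxin list had median log2 fold changes of 1.15 in JAR1-OE, 0.89 in jar1-11 and 1.04 in WT. Beside the auxin counts, 12.4% of all genes tested rose and 13.6% fell in JAR1-OE, 25.9% and 27.7% in jar1-11, and 16.6% and 18.8% in WT. UGT74D1 (AT2G31750), which acts on indole-3-acetic acid and its oxidised form, was at 8.01, 8.77 and 6.51 CPM in JAR1-OE drought libraries, against 24, 32.3 and 22.7 CPM in JAR1-OE control libraries (log2 fold change -1.76 ± 0.22, adjusted p = 9.53e-06). In jar1-11 UGT74D1 was at 6.46, 5.21 and 5.82 CPM under drought, against 41.9, 36.7 and 43 CPM under control conditions (log2 fold change -2.80 ± 0.23, adjusted p = 7.81e-09). In WT UGT74D1 was at 6.56, 2.91 and 6.32 CPM under drought, against 42.3, 34.3 and 35 CPM under control conditions (log2 fold change -2.84 ± 0.24, adjusted p = 1.93e-08). It fell in each genotype with no overlap, and in WT its fall was the largest among members that averaged at least 5 CPM in control libraries. UGT75D1 (AT4G15550), which acts on indole-3-butyric acid, rose in JAR1-OE (log2 fold change 1.82 ± 0.33, adjusted p = 3.80e-04) and jar1-11 (log2 fold change 1.67 ± 0.32, adjusted p = 1.81e-04) and did not pass in WT (log2 fold change 0.71 ± 0.31, adjusted p = 0.0849). UGT75D1 was at 28.3, 18.5 and 15.2 CPM in JAR1-OE drought libraries and 21.9, 17.4 and 22.5 CPM in WT drought libraries. Control libraries held 2.9, 6.45 and 8.14 CPM in JAR1-OE and 12.2, 13.6 and 11.9 CPM in WT. That control difference was called (log2 fold change -1.10 ± 0.34, adjusted p = 0.0484), and lost in each fit with 1 of these control libraries left out. UGT74E2 (AT1G05680), which also acts on indole-3-butyric acid, was at 13.7, 19.6 and 8.94 CPM in jar1-11 drought libraries, against 0.104, 0.295 and 0 CPM in jar1-11 control libraries. As the control libraries held 3 reads and the drought libraries 281, the fold of pooled reads was 110.2, with an exact binomial 95% interval of 37.3 to 537 that covers counting error only. In WT it was at 2.07, 1.65 and 2.16 CPM under drought, against 0.222, 0.98 and 0.567 CPM under control conditions, and did not pass the test (log2 fold change 1.63 ± 0.68, adjusted p = 0.0687), and in JAR1-OE it rose (log2 fold change 2.67 ± 0.84, adjusted p = 0.0246). The UGT74E2 call in JAR1-OE was lost without JAR1-OE control 1 or 2 or JAR1-OE drought 2 (adjusted p up to 0.145), and it did not pass with only the groups compared in the fit (adjusted p = 0.064).

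For cytokinins, whose glucosides are storage or inactive forms, 2 of 4 tested genes rose in jar1-11, 2 rose and 1 fell in WT, and edgeR called 0 in JAR1-OE. In JAR1-OE UGT76C1, UGT76C2 and UGT73C1 were at an unadjusted p under 0.05, and DESeq2 called 0 of the 4. The cytokinin list had median log2 fold changes of 0.32 in JAR1-OE, 0.93 in jar1-11 and 0.02 in WT. Beside the cytokinin counts, 12.4% of all genes tested rose and 13.6% fell in JAR1-OE, 25.9% and 27.7% in jar1-11, and 16.6% and 18.8% in WT. UGT76C1 and UGT76C2 both glucosylate ring nitrogens. UGT76C1 (AT5G05870) was at 15.5, 13.7 and 16.2 CPM in WT drought libraries, against 10.5, 6.21 and 6.52 CPM in WT control libraries (log2 fold change 0.99 ± 0.25, adjusted p = 0.00372). UGT76C2 (AT5G05860) was at 1.21, 0.507 and 1.85 CPM in WT drought libraries, against 4.89, 6.21 and 4.54 CPM in WT control libraries, a change of opposite sign (log2 fold change -2.15 ± 0.49, adjusted p = 0.00181). UGT73C5 (AT2G36800), which inactivates brassinosteroids and the fungal toxin deoxynivalenol, was at 6.85, 5.74 and 4.07 CPM in JAR1-OE drought libraries, against 2.61, 2.27 and 2.97 CPM in JAR1-OE control libraries (log2 fold change 1.07 ± 0.31, adjusted p = 0.014). In jar1-11 UGT73C5 was at 28.7, 28.4 and 26 CPM under drought, against 5, 3.83 and 4.74 CPM under control conditions (log2 fold change 2.61 ± 0.27, adjusted p = 1.18e-07). In WT UGT73C5 was at 9.5, 14.1 and 22.2 CPM under drought, against 5.56, 6.37 and 4.39 CPM under control conditions (log2 fold change 1.49 ± 0.27, adjusted p = 2.20e-04). It rose in each genotype, and no drought library overlapped a control library. Of the 50-base stretches near its 3' end 92.3% are unique. The UGT76C1 call in jar1-11 was lost without jar1-11 drought 3 (adjusted p = 0.0535). The UGT73C5 call in JAR1-OE was lost without JAR1-OE control 2 or JAR1-OE drought 1 (adjusted p up to 0.0745).

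Salicylic acid and related benzoic acids are stored as glucosides. Of 6 tested genes of that group 2 rose in JAR1-OE, 3 in jar1-11 and 1 in WT, and 0 fell. The benzoic acid list had median log2 fold changes of 1.29 in JAR1-OE, 2.00 in jar1-11 and 0.43 in WT. Beside the benzoic acid counts, 12.4% of all genes tested rose and 13.6% fell in JAR1-OE, 25.9% and 27.7% in jar1-11, and 16.6% and 18.8% in WT. UGT74F2 (AT2G43820), which makes the glucose ester of salicylic acid, was at 128, 232 and 106 CPM in jar1-11 drought libraries, against 12.1, 24.3 and 22.9 CPM in jar1-11 control libraries (log2 fold change 2.99 ± 0.48, adjusted p = 2.85e-05). It was at 65.5, 23.9 and 17.3 CPM under drought and 22.5, 16.4 and 18.7 CPM under control conditions in JAR1-OE, and 12.4, 47 and 34.7 CPM under drought and 34.5, 24.8 and 19.6 CPM under control conditions in WT, with overlap in both. UGT76B1 (AT3G11340), which acts on salicylic acid, isoleucic acid and N-hydroxypipecolic acid, was at 5.56, 17.2 and 6.03 CPM in jar1-11 drought libraries, against 1.56, 2.06 and 2.37 CPM in jar1-11 control libraries (log2 fold change 2.29 ± 0.54, adjusted p = 0.0013). UGT89B1 (AT1G73880), a glucosyltransferase of benzoates, rose in all 3 genotypes, by a log2 fold change of 1.68 in JAR1-OE, 2.61 in jar1-11 and 1.68 in WT. UGT75B1, also listed for this group, is counted under another name and is not among the members or the 6 tested. Its levels were 38.6, 33.6 and 23 CPM in JAR1-OE drought libraries, against 10.2, 18.1 and 16 CPM in control libraries. In jar1-11 they were 84, 63.4 and 74.9 against 14, 16.2 and 12.9 CPM, and in WT 33.9, 32.9 and 51.5 against 19.6, 15.7 and 22.3 CPM. UGT76E1, the 1 member listed for jasmonates, was at most 1.27 CPM in each library and did not pass in any comparison. The UGT76B1 call in JAR1-OE was lost without JAR1-OE control 1, 2 or 3 or JAR1-OE drought 1 or 3 (adjusted p up to 0.175), and it did not pass with RLE size factors (adjusted p = 0.0502) or with the replicate block (adjusted p = 0.0515). The UGT76B1 change in jar1-11 was 1.54 without jar1-11 drought 2.

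The 2 enzymes of glucosinolate synthesis, UGT74B1 and UGT74C1, add glucose to the thiohydroximate precursor and fell under drought in jar1-11 and WT. The glucosinolate list had median log2 fold changes of 0.14 in JAR1-OE, -1.74 in jar1-11 and -1.38 in WT. Beside the glucosinolate counts, 12.4% of all genes tested rose and 13.6% fell in JAR1-OE, 25.9% and 27.7% in jar1-11, and 16.6% and 18.8% in WT. UGT74B1 (AT1G24100) was at 20.4, 26.4 and 18.9 CPM in jar1-11 drought libraries, against 81.4, 84.4 and 73.2 CPM in jar1-11 control libraries (log2 fold change -1.85 ± 0.22, adjusted p = 7.78e-07). In WT UGT74B1 was at 33.7, 38.4 and 23.4 CPM under drought, against 119, 64.1 and 86.6 CPM under control conditions (log2 fold change -1.49 ± 0.22, adjusted p = 1.88e-05). In JAR1-OE it was at 78.4, 75.1 and 59.5 CPM under drought and 55.7, 67.8 and 63.4 CPM under control conditions (log2 fold change 0.19 ± 0.21, adjusted p = 0.554). UGT74C1 (AT2G31790), linked to glucosinolates made from methionine, was at 10.1, 6.81 and 12.5 CPM in jar1-11 drought libraries, against 27.9, 35.5 and 26.4 CPM in jar1-11 control libraries (log2 fold change -1.63 ± 0.25, adjusted p = 1.49e-05). In WT UGT74C1 was at 18.7, 17.4 and 10.6 CPM under drought, against 45.8, 32.7 and 34.6 CPM under control conditions (log2 fold change -1.27 ± 0.24, adjusted p = 2.78e-04). In JAR1-OE it was at 30.4, 30.0 and 28.5 CPM under drought and 20.9, 27.9 and 34.2 CPM under control conditions (log2 fold change 0.10 ± 0.23, adjusted p = 0.802). The sterol glucosyltransferases UGT80A2 and UGT80B1 had log2 fold changes between -0.18 and 0.64, and UGT80B1 in jar1-11 was their 1 call (log2 fold change 0.64 ± 0.17, adjusted p = 0.00378).

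**Figure D3:**
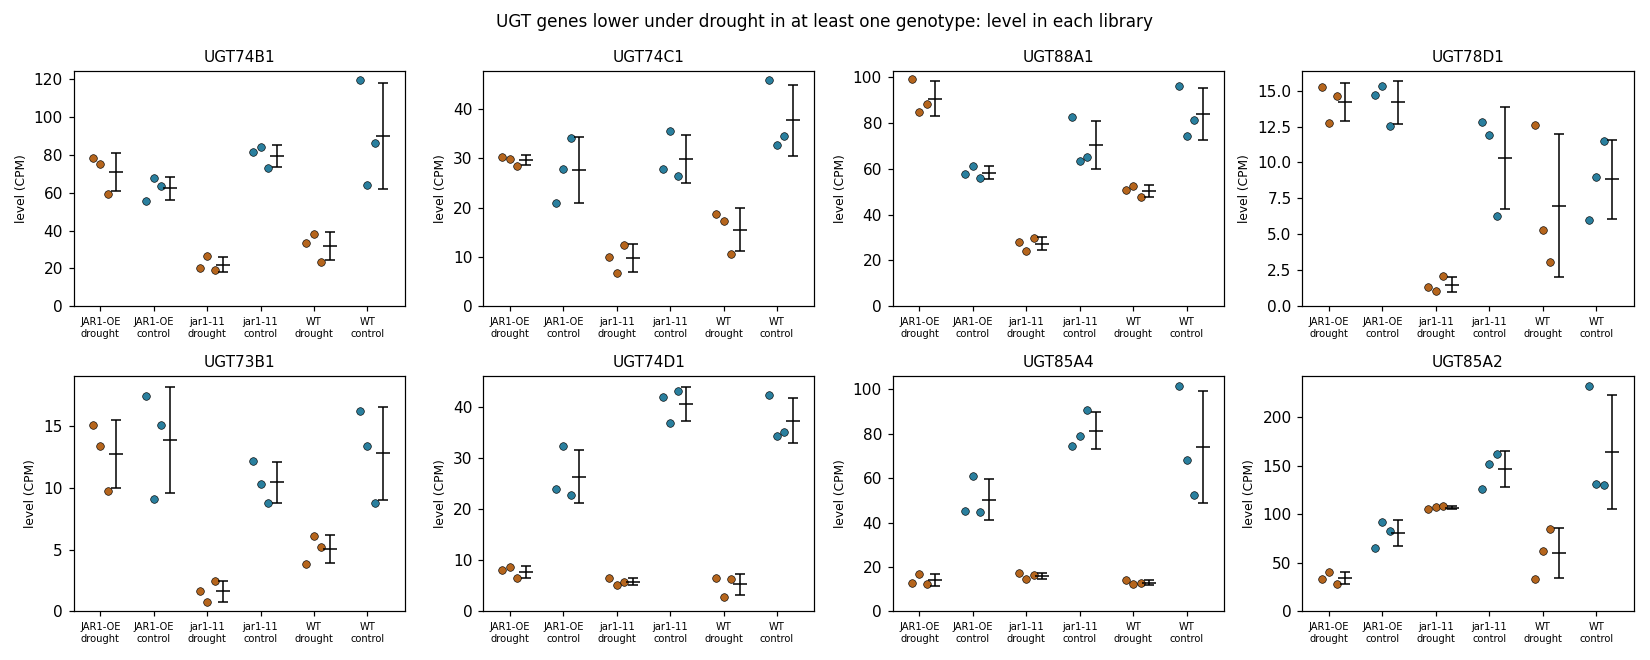
Level in CPM of 8 UGT genes that fell under drought in at least 1 genotype, 1 point per library, with the mean ± SD of each group of 3 to the right of the points; brown is drought and blue is control. UGT74B1 and UGT74C1 are low in the jar1-11 and WT drought libraries and overlap or lie near the controls in JAR1-OE, UGT78D1 is at or below 2.08 CPM in the jar1-11 drought libraries, and UGT74D1 and UGT85A4 are low in every drought group.

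Among members linked to stress in earlier work, UGT73B3, UGT73B5, UGT85A5 and UGT87A2 rose in each genotype and UGT73B2 in none. The stress list had median log2 fold changes of 1.64 in JAR1-OE, 2.80 in jar1-11 and 1.92 in WT. Beside the stress counts, 12.4% of all genes tested rose and 13.6% fell in JAR1-OE, 25.9% and 27.7% in jar1-11, and 16.6% and 18.8% in WT. UGT73B5 (AT2G15480), whose reads cannot be separated from those of UGT73B4 and which is known from responses to pathogens and oxidative stress, was at 31.5, 35.2 and 29.7 CPM in JAR1-OE drought libraries, against 5.95, 8.72 and 6.07 CPM in JAR1-OE control libraries (log2 fold change 2.23 ± 0.21, adjusted p = 1.94e-07). It was at 214, 251 and 187 CPM in jar1-11 drought libraries, against 15, 14.3 and 19 CPM in jar1-11 control libraries (log2 fold change 3.76 ± 0.20, adjusted p = 2.71e-11). WT drought libraries held 67.7, 87.5 and 112 CPM, against 18.2, 17.2 and 17 CPM in WT control libraries (log2 fold change 2.35 ± 0.19, adjusted p = 1.77e-08). No drought library overlapped a control library, and every jar1-11 drought library was above every WT drought library, which in turn was above every JAR1-OE drought library. UGT85A5 (AT1G22370), whose overexpression raises salt tolerance in tobacco, was at 32.4, 26.1 and 41.6 CPM in JAR1-OE drought libraries, against 8.86, 13.6 and 9.94 CPM in JAR1-OE control libraries (log2 fold change 1.64 ± 0.22, adjusted p = 1.32e-05). In jar1-11 UGT85A5 was at 102, 66.6 and 87.5 CPM under drought, against 11.1, 12.5 and 13.2 CPM under control conditions (log2 fold change 2.80 ± 0.22, adjusted p = 2.56e-09). In WT UGT85A5 was at 54.1, 62.4 and 79.2 CPM under drought, against 17.6, 15.2 and 16.4 CPM under control conditions (log2 fold change 1.99 ± 0.21, adjusted p = 4.35e-07). Each drought library was above each control library of its genotype. UGT87A2 (AT2G30140), known for an effect on flowering time, was at 84.9, 79.7 and 65.3 CPM in JAR1-OE drought libraries, against 42.8, 23.5 and 32.9 CPM in JAR1-OE control libraries (log2 fold change 1.21 ± 0.33, adjusted p = 0.0108). In jar1-11 UGT87A2 was at 225, 282 and 195 CPM under drought, against 54.6, 41 and 54.9 CPM under control conditions (log2 fold change 2.22 ± 0.33, adjusted p = 1.49e-05). In WT UGT87A2 was at 50.1, 101 and 149 CPM under drought, against 75.9, 50.5 and 30.5 CPM under control conditions (log2 fold change 0.95 ± 0.33, adjusted p = 0.0299). It rose in each genotype, and its groups overlapped in WT and not in the other genotypes. The UGT87A2 call in JAR1-OE was lost without JAR1-OE control 2 (adjusted p = 0.0575). The UGT87A2 call in WT was lost without WT control 2 or 3 or WT drought 2 or 3 (adjusted p up to 0.228), and it did not pass with only the groups compared in the fit (adjusted p = 0.105).

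**Figure D4:**
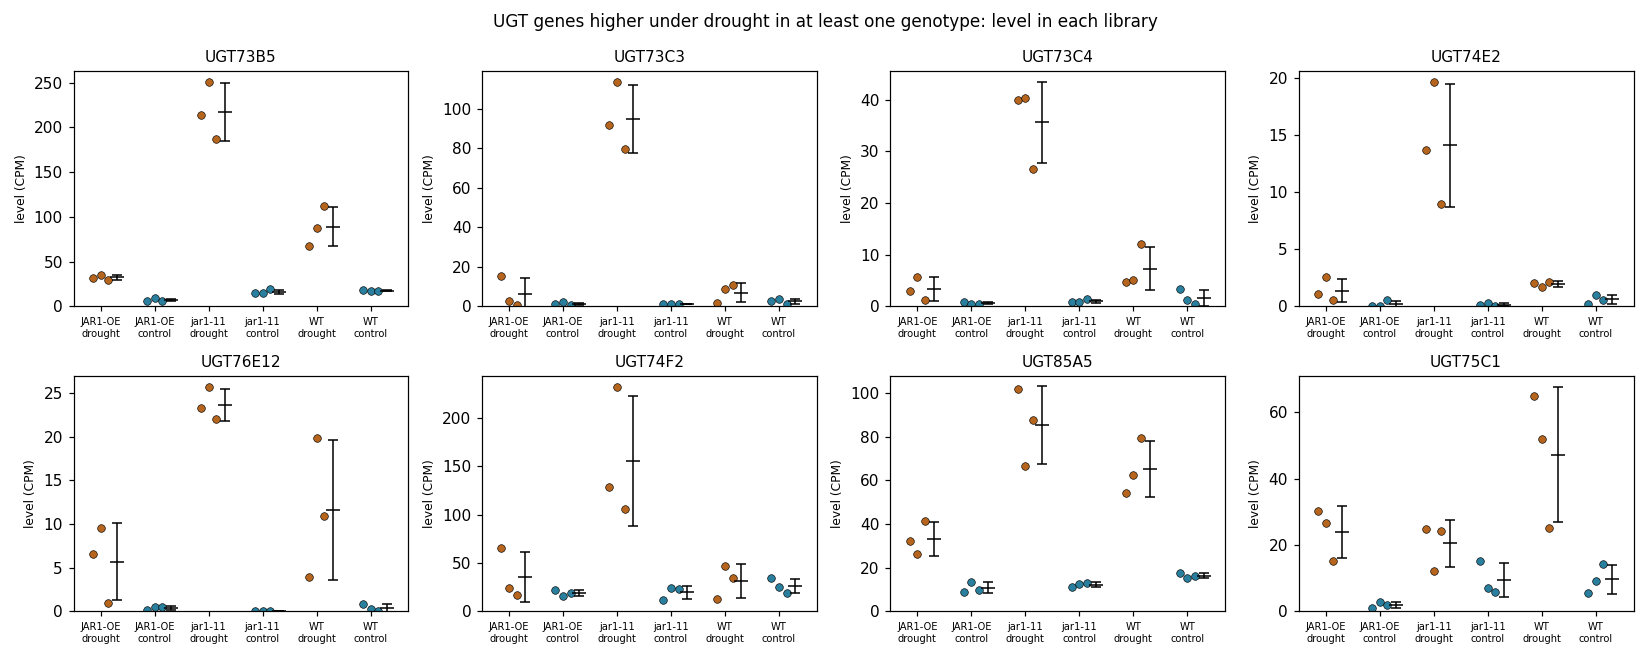
Level in CPM of 8 UGT genes that rose under drought in at least 1 genotype, 1 point per library, with the mean ± SD of each group of 3 to the right of the points; brown is drought and blue is control. UGT73B5, UGT73C3, UGT73C4, UGT74E2 and UGT74F2 are highest in the 3 jar1-11 drought libraries, and UGT75C1 is highest in 2 WT drought libraries.

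In the UGT73 family, of 11 tested members 5 rose and 0 fell in JAR1-OE, 8 rose and 1 fell in jar1-11, and 6 rose and 1 fell in WT, with UGT73B1 the gene that fell. The UGT73 list had median log2 fold changes of 1.98 in JAR1-OE, 3.65 in jar1-11 and 1.54 in WT. Beside the UGT73 counts, 12.4% of all genes tested rose and 13.6% fell in JAR1-OE, 25.9% and 27.7% in jar1-11, and 16.6% and 18.8% in WT. The JAR1-OE median is 1.07 with UGT73C1, at 0 reads in the control libraries, put at its lower bound. UGT73C1 to UGT73C6 lie side by side on chromosome 2, and 5 of them were tested. UGT73C3 (AT2G36780) was at 91.9, 113 and 79.4 CPM in jar1-11 drought libraries, against 1.35, 1.18 and 1.19 CPM in jar1-11 control libraries (log2 fold change 6.23 ± 0.77, adjusted p = 1.41e-06). UGT73C4 (AT2G36770), which differs from it by 1 base in the PSPG stretch shown above, was at 40.0, 40.3 and 26.6 CPM in jar1-11 drought libraries, against 0.729, 0.737 and 1.36 CPM in jar1-11 control libraries (log2 fold change 5.27 ± 0.55, adjusted p = 1.37e-07). No jar1-11 drought library overlapped another drought group in either gene. UGT73C3 was at 15.2, 2.87 and 0.407 CPM in JAR1-OE drought libraries and 1.38, 8.74 and 10.6 CPM in WT drought libraries, and UGT73C4 was at 2.97, 5.74 and 1.22 CPM in JAR1-OE drought libraries and 4.66, 5.07 and 12 CPM in WT drought libraries. All 50-base stretches at the 3' ends of both are unique. UGT73C7, on another chromosome, was at 19.4, 86.3 and 35.3 CPM in jar1-11 drought libraries, against 0.521, 0.295 and 0.847 CPM in jar1-11 control libraries (log2 fold change 6.40 ± 0.80, adjusted p = 1.45e-06). UGT73C1 (AT2G36750) had 0 reads in the 9 control libraries and held 7.06, 4.41 and 2.5 CPM in jar1-11 drought libraries and 3.45, 1.14 and 1.7 CPM in WT drought libraries, at least 36.1-fold and 11.7-fold higher than a floor of 3 reads in each control group. The UGT73C7 call in WT was lost without WT control 1, 2 or 3 or WT drought 2 (adjusted p up to 0.466). The UGT73C3 call in JAR1-OE was lost without JAR1-OE control 1, 2 or 3 or JAR1-OE drought 1 (adjusted p up to 0.762), and it did not pass with the replicate block (adjusted p = 0.069) or with only the groups compared in the fit (adjusted p = 0.0693). The UGT73C4 call in JAR1-OE was lost without JAR1-OE control 3 or JAR1-OE drought 2 (adjusted p up to 0.0869). The UGT73C4 change in WT was 3.21 without WT control 1. The UGT73C7 change in jar1-11 was 5.61 without jar1-11 drought 2.

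UGT76E12 (AT3G46660), of the UGT76E pair shown above, had 0 reads in the jar1-11 control libraries and was at 23.3, 25.6 and 22 CPM in the jar1-11 drought libraries, at least 178-fold higher than 3 reads over that group. It was at 6.59, 9.57 and 0.949 CPM in JAR1-OE drought libraries and 3.97, 19.9 and 10.9 CPM in WT drought libraries, against 0.145, 0.523 and 0.517 CPM and 0.89, 0.327 and 0 CPM in their control libraries (log2 fold change 3.78 ± 0.87, adjusted p = 0.00367 in JAR1-OE, log2 fold change 5.02 ± 0.87, adjusted p = 2.02e-04 in WT). Its neighbour UGT76E11 (AT3G46670) was at 15.3, 15.9 and 15.2 CPM in jar1-11 drought libraries, against 0.937, 2.8 and 2.37 CPM in jar1-11 control libraries (log2 fold change 2.97 ± 0.37, adjusted p = 1.32e-06), and at 3.36, 3.35 and 1.9 CPM in JAR1-OE drought libraries, against 3.19, 2.27 and 2.45 CPM in JAR1-OE control libraries, where it did not pass. In WT UGT76E11 was at 3.11, 8.11 and 6.47 CPM under drought, against 2.67, 3.92 and 2.41 CPM under control conditions (log2 fold change 0.99 ± 0.37, adjusted p = 0.043). Other genes of the same row on chromosome 3 were called in jar1-11 on fewer reads, namely UGT76E4 (log2 fold change 2.60 ± 0.65, adjusted p = 0.0023), with 100 of its 173 reads in jar1-11 drought libraries, UGT76E3 (adjusted p = 0.0226), with 17 of 47, and UGT76E6 (adjusted p = 0.00281), with 29 of 32. UGT76E6 reached the minimum of 20 reads only through those libraries. Of the 47 UGT76E3 reads, 19 were in WT drought library 2 alone. In the UGT74E pair UGT74E2 rose in jar1-11, as given above, while UGT74E1 (AT1G05675) was at 0.518, 0.253 and 0 CPM in WT drought libraries, against 3.78, 2.12 and 0.85 CPM in WT control libraries, and fell there (log2 fold change -3.02 ± 0.88, adjusted p = 0.0114). UGT74E1 was at 1.5, 2.4 and 0.832 CPM in jar1-11 drought libraries, against 1.77, 3.98 and 5.76 CPM in jar1-11 control libraries, and did not pass (log2 fold change -1.19 ± 0.63, adjusted p = 0.12), nor did it in JAR1-OE (log2 fold change -1.14 ± 0.67, adjusted p = 0.234). The UGT76E12 change in WT was 4.32 to 4.37 without WT control 3 or WT drought 2. The UGT76E11 call in WT was lost without WT control 1 or 3 or WT drought 2 or 3 (adjusted p up to 0.221), and it did not pass without a filter on low counts (adjusted p = 0.0525) or with only the groups compared in the fit (adjusted p = 0.102). The UGT76E3 call in jar1-11 was lost without jar1-11 control 1 or 2 or jar1-11 drought 2 (adjusted p up to 0.0646). The UGT76E6 call in jar1-11 did not pass with DESeq2 (adjusted p = 0.237). The UGT74E1 call in WT was lost without WT control 1 (adjusted p = 0.056).

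The UGT85A genes gave falls and rises within one row of neighbours on chromosome 1. UGT85A2 (AT1G22360), the most abundant UGT transcript of control rosettes, was at 33.5, 40.5 and 28.1 CPM in JAR1-OE drought libraries and 33.2, 61.8 and 84.5 CPM in WT drought libraries, against 65.6, 92.4 and 83.2 CPM and 232, 131 and 130.2 CPM in their control libraries, and fell in both (log2 fold change -1.24 ± 0.27, adjusted p = 0.00204 in JAR1-OE, log2 fold change -1.45 ± 0.27, adjusted p = 2.77e-04 in WT). In jar1-11 it was at 105, 107 and 108 CPM under drought, against 126, 152 and 162 CPM under control conditions, and did not pass (log2 fold change -0.46 ± 0.26, adjusted p = 0.15). UGT85A5, next to it, rose in each genotype as described. UGT85A4 (AT1G78270), which lies elsewhere, was at 12.9, 17.1 and 12.2 CPM in JAR1-OE drought libraries, against 45.1, 61 and 44.9 CPM in JAR1-OE control libraries (log2 fold change -1.84 ± 0.21, adjusted p = 2.96e-06). In jar1-11 UGT85A4 was at 17.3, 14.6 and 16.2 CPM under drought, against 74.5, 79.1 and 90.5 CPM under control conditions (log2 fold change -2.34 ± 0.21, adjusted p = 2.66e-08). In WT UGT85A4 was at 14.2, 12.2 and 12.6 CPM under drought, against 101, 68 and 52.4 CPM under control conditions (log2 fold change -2.51 ± 0.22, adjusted p = 3.30e-08). Every drought library was below every control library of its genotype. UGT91A1, UGT91B1 and UGT91C1 held 9 of 25, 66 of 71 and 66 of 85 reads in jar1-11 drought libraries and would not have reached the minimum of 20 without them, so their calls there follow in part from the filter. UGT91B1 (AT5G65550) had 0 reads in all 9 control libraries and 3.31, 4.01 and 2.91 CPM in jar1-11 drought libraries, at least 25.9-fold higher than 3 reads over the jar1-11 control group. The UGT91A1 call in jar1-11 was lost without jar1-11 control 1 or 2 or jar1-11 drought 1 (adjusted p up to 0.0737). The UGT91B1 call in jar1-11 did not pass with DESeq2 (adjusted p = 0.125).

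JAR1-OE differed from WT in 1 member that was higher and 10 that were lower under control conditions (1.20% and 12.05% of 83), against 4.35% of all genes tested that were higher and 4.59% that were lower (8.94% in all). Under drought 8 were higher and 11 lower (9.64% and 13.3%), against 8.09% and 5.79% of all genes (13.9% in all). UGT73B5, counted with any UGT73B4 reads, was lower in JAR1-OE in both conditions (log2 fold change -1.47 ± 0.18, adjusted p = 3.39e-05 under drought, log2 fold change -1.35 ± 0.21, adjusted p = 0.00134 under control conditions), and each JAR1-OE library was below each WT library of its condition. UGT84A3 was also lower in both (log2 fold change -0.95 ± 0.20, adjusted p = 0.00388 under drought, log2 fold change -1.01 ± 0.23, adjusted p = 0.0102 under control conditions). Also lower under control conditions were UGT75C1 (log2 fold change -2.27 ± 0.53, adjusted p = 0.0128), UGT72B1 (log2 fold change -0.89 ± 0.19, adjusted p = 0.00765) and UGT75D1, as given above. The same JAR1-OE control libraries enter their drought changes in JAR1-OE. The UGT75C1 and UGT72B1 control calls were lost in some fits with 1 library left out (adjusted p up to 0.0818 and 0.0563). UGT90A1 (AT2G16890) was at 5.56, 11.2 and 9.35 CPM in JAR1-OE drought libraries, against 22.5, 24.7 and 21.3 CPM in WT drought libraries (log2 fold change -1.40 ± 0.23, adjusted p = 4.54e-04), and UGT89B1 was at 2.84, 3.67 and 3.52 CPM in JAR1-OE drought libraries, against 8.46, 7.98 and 9.87 CPM in WT drought libraries (log2 fold change -1.39 ± 0.26, adjusted p = 0.00141). UGT85A5 and UGT73C5 were lower too under drought, with log2 fold changes of -0.96 and -1.46. The 1 member higher under control conditions, named after its value was seen, was UGT71D2, with 27 reads in JAR1-OE control libraries and 1 in WT control libraries, a fold of 23.4 with an exact binomial 95% interval of 3.86 to 959. The UGT84A3 call between JAR1-OE and WT under control conditions did not pass with only the groups compared in the fit (adjusted p = 0.0575). The UGT71D2 call between JAR1-OE and WT under control conditions was lost without WT control 3 (adjusted p = 0.0524). The count of members called under control conditions was 4 without JAR1-OE control 1 or JAR1-OE control 3.

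The members that were higher in JAR1-OE than in WT under drought were UGT71D1, UGT73B1, UGT74B1, UGT74C1, UGT79B7, UGT79B8, UGT88A1 and UGT89C1. UGT74B1 was at 78.4, 75.1 and 59.5 CPM in JAR1-OE drought libraries, against 33.7, 38.4 and 23.4 CPM in WT drought libraries (log2 fold change 1.15 ± 0.21, adjusted p = 0.00116), and UGT73B1 was at 15.1, 13.4 and 9.76 CPM, against 3.8, 6.08 and 5.24 CPM (log2 fold change 1.32 ± 0.31, adjusted p = 0.0068). UGT88A1 (AT3G16520) was at 99, 84.7 and 88.1 CPM in JAR1-OE drought libraries, against 50.8, 52.4 and 47.6 CPM in WT drought libraries (log2 fold change 0.85 ± 0.14, adjusted p = 4.98e-04). UGT79B7 (AT4G09500) was at 13.6, 13.1 and 16.4 CPM in JAR1-OE drought libraries, against 8.98, 6.08 and 6.32 CPM in WT drought libraries (log2 fold change 1.02 ± 0.22, adjusted p = 0.00402). In each of these 4 genes no JAR1-OE drought library overlapped a WT drought library. The leaf markers were higher in these JAR1-OE libraries than in WT under drought, as given above, and so were the flower markers in all but WT drought library 1, and their part in these differences was not tested. The UGT71D1 call between JAR1-OE and WT under drought was lost without WT drought 2 or 3 (adjusted p up to 0.0661), and the UGT71D1 change between JAR1-OE and WT under drought was 3.42 without WT drought 1, and it did not pass with only the groups compared in the fit (adjusted p = 0.082). The UGT74C1 call between JAR1-OE and WT under drought was lost without WT drought 3 (adjusted p = 0.0769). The UGT79B8 call between JAR1-OE and WT under drought was lost without WT drought 3 (adjusted p = 0.0793). The UGT89C1 call between JAR1-OE and WT under drought was lost without WT drought 2 or 3 or JAR1-OE drought 1 or 2 (adjusted p up to 0.187), and it did not pass with only the groups compared in the fit (adjusted p = 0.0584).

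No difference between jar1-11 and WT passed the test in any member under control conditions. edgeR called 0 of 83 and 0.00506% of all genes tested, 3 members were at an unadjusted p under 0.05, and DESeq2 called 0. Under drought 29 members were higher and 9 lower in jar1-11 (34.9% and 10.8% of 83), against 14.1% of all genes tested that were higher and 16.8% that were lower (30.9% in all). Of the 29, 4 reached the minimum of 20 reads only with the reads of the jar1-11 drought libraries. UGT73C3 was at 91.9, 113 and 79.4 CPM in jar1-11 drought libraries, against 1.38, 8.74 and 10.6 CPM in WT drought libraries (log2 fold change 3.75 ± 0.63, adjusted p = 2.59e-04), and UGT74F2 was at 128, 232 and 106 CPM, against 12.4, 47 and 34.7 CPM (log2 fold change 2.30 ± 0.46, adjusted p = 9.96e-04). UGT74E2 and UGT76B1 were higher by 2.85 and 2.85 on the log2 scale. UGT87A2, at 225, 282 and 195 CPM in jar1-11 drought libraries, against 50.1, 101 and 149 CPM in WT drought libraries, was higher as well (log2 fold change 1.22 ± 0.32, adjusted p = 0.00739). Lower in jar1-11 were UGT78D1 (log2 fold change -2.24 ± 0.47, adjusted p = 0.00141), UGT73B1 (log2 fold change -1.69 ± 0.39, adjusted p = 0.00319), UGT79B7 (log2 fold change -1.37 ± 0.25, adjusted p = 5.66e-04) and UGT88A1, the last at 27.8, 24.3 and 29.7 CPM, against 50.8, 52.4 and 47.6 CPM in WT drought libraries (log2 fold change -0.89 ± 0.15, adjusted p = 2.42e-04). UGT73B1, UGT74C1, UGT79B7, UGT88A1 and UGT89C1 were called higher in JAR1-OE and lower in jar1-11 than in WT under drought. Both differences are measured against the same 3 WT libraries, and the share of all genes with this pattern was not counted. The jar1-11 call of UGT89C1 (log2 fold change -0.84 ± 0.27, adjusted p = 0.022) was lost without WT drought 1 or jar1-11 drought 3. That of UGT74C1 was lost in several alternatives (adjusted p up to 0.229). Leaf marker sums were lower in jar1-11 than in WT under drought (458 to 603 CPM, against 1376 to 1877 CPM), and their part was not tested. The UGT76B1 change between jar1-11 and WT under drought was 2.11 to 3.48 without WT drought 3 or jar1-11 drought 2. The UGT78D1 change between jar1-11 and WT under drought was -1.55 without WT drought 1.

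The drought response itself was compared between genotypes as the difference of 2 log2 fold changes, and both comparisons use the same WT libraries. For JAR1-OE minus WT, 4 members had a higher response and 1 a lower (4.82% and 1.20% of 83), against 3.51% and 1.51% of all genes tested (5.02% in all). UGT88A1 turned round. It rose in JAR1-OE, at 99, 84.7 and 88.1 CPM under drought, against 57.5, 61.4 and 56 CPM under control conditions (log2 fold change 0.64 ± 0.14, adjusted p = 0.00243), and fell in WT, at 50.8, 52.4 and 47.6 CPM, against 96.1, 74.2 and 81.2 CPM (log2 fold change -0.74 ± 0.14, adjusted p = 4.68e-04), and the difference passed the test (difference 1.37 ± 0.20 on the log2 scale, adjusted p = 7.96e-04). The glucosinolate genes UGT74B1 (difference 1.68 ± 0.30 on the log2 scale, adjusted p = 0.00292) and UGT74C1 (difference 1.37 ± 0.33 on the log2 scale, adjusted p = 0.0215) fell in WT, while their JAR1-OE drought and control libraries overlapped. UGT92A1 (AT5G12890) had changes of 0.47 in JAR1-OE and -0.64 in WT (difference 1.105 ± 0.27 on the log2 scale, adjusted p = 0.0248). Its control levels were 54, 47.2 and 52 CPM in JAR1-OE and 115, 60.5 and 72.7 CPM in WT. UGT92A1 was lower in JAR1-OE than in WT under control conditions (log2 fold change -0.69 ± 0.19, adjusted p = 0.0319), as was UGT88A1. Both response differences thus include a control difference. Those control calls were lost in some alternatives (adjusted p up to 0.171 for UGT92A1 and 0.112 for UGT88A1). The 1 member with a lower response, named after its value was seen, was UGT76C4, with 0 reads in JAR1-OE drought and WT control libraries and 17 in WT drought libraries. The UGT74C1 call for the JAR1-OE response was lost without WT drought 3 or JAR1-OE control 1 (adjusted p up to 0.061). The UGT92A1 call in WT was lost without WT control 1 (adjusted p = 0.112), and it did not pass with only the groups compared in the fit (adjusted p = 0.0769). The UGT92A1 call for the JAR1-OE response was lost without WT drought 2, JAR1-OE control 2 or 3 or JAR1-OE drought 2 (adjusted p up to 0.0701), and it did not pass with only the groups compared in the fit (adjusted p = 0.0501). The UGT76C4 call for the JAR1-OE response was lost without WT control 1 or 3, WT drought 2 or 3, JAR1-OE control 1 or 3 or JAR1-OE drought 1, 2 or 3 (adjusted p up to 0.142), and it did not pass with the replicate block (adjusted p = 0.0511) or with only the groups compared in the fit (adjusted p = 0.0694). The count was 8 without WT drought 1 and 3 without WT drought 2 or 3, JAR1-OE control 1 or 3, or JAR1-OE drought 2.

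For jar1-11 minus WT, 12 members had a higher response and 2 a lower (14.5% and 2.41% of 83), against 5.72% and 8.01% of all genes tested (13.7% in all). Among members past the threshold that averaged at least 5 CPM in a group, UGT74E2 (difference 4.90 ± 1.14 on the log2 scale, adjusted p = 0.00953), UGT73C3 (difference 4.69 ± 1.17 on the log2 scale, adjusted p = 0.0139) and UGT73C4 (difference 2.99 ± 0.85 on the log2 scale, adjusted p = 0.0259) had the largest differences. UGT85A7 (difference 2.72 ± 0.69 on the log2 scale, adjusted p = 0.0146) and UGT74F2 (difference 2.72 ± 0.65 on the log2 scale, adjusted p = 0.0112) followed. UGT73B5, again with any UGT73B4 reads, rose in both genotypes and by more in jar1-11 (difference 1.41 ± 0.27 on the log2 scale, adjusted p = 0.00278). The 2 with a lower response were UGT78D1 (difference -2.46 ± 0.59 on the log2 scale, adjusted p = 0.0114) and UGT88A1 (difference -0.64 ± 0.20 on the log2 scale, adjusted p = 0.0446). UGT88A1 fell in both, with log2 fold changes of -1.37 in jar1-11 and -0.74 in WT. The UGT74E2 call for the jar1-11 response was lost without WT control 2 (adjusted p = 0.0503), and the UGT74E2 change for the jar1-11 response was 5.82 without jar1-11 control 2. The UGT73C3 call for the jar1-11 response was lost without WT control 2 (adjusted p = 0.0621). The UGT73C4 call for the jar1-11 response was lost without WT control 1, WT drought 1, jar1-11 control 1 or 2 or jar1-11 drought 2 (adjusted p up to 0.171). The UGT85A7 change for the jar1-11 response was 3.40 without WT drought 2. The UGT78D1 change for the jar1-11 response was -1.77 without WT drought 1. The UGT88A1 call for the jar1-11 response was lost without WT control 2 or 3, WT drought 1 or 2, jar1-11 control 1 or 2 or jar1-11 drought 1 or 2 (adjusted p up to 0.131), and it did not pass with RLE size factors (adjusted p = 0.057), with the filterByExpr filter (adjusted p = 0.0507), without a filter on low counts (adjusted p = 0.0776) or with only the groups compared in the fit (adjusted p = 0.0923). The count was 7 without WT control 2 or jar1-11 control 1, 8 without WT drought 1 or jar1-11 control 2, and 9 without jar1-11 drought 2.

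**Figure D5:**
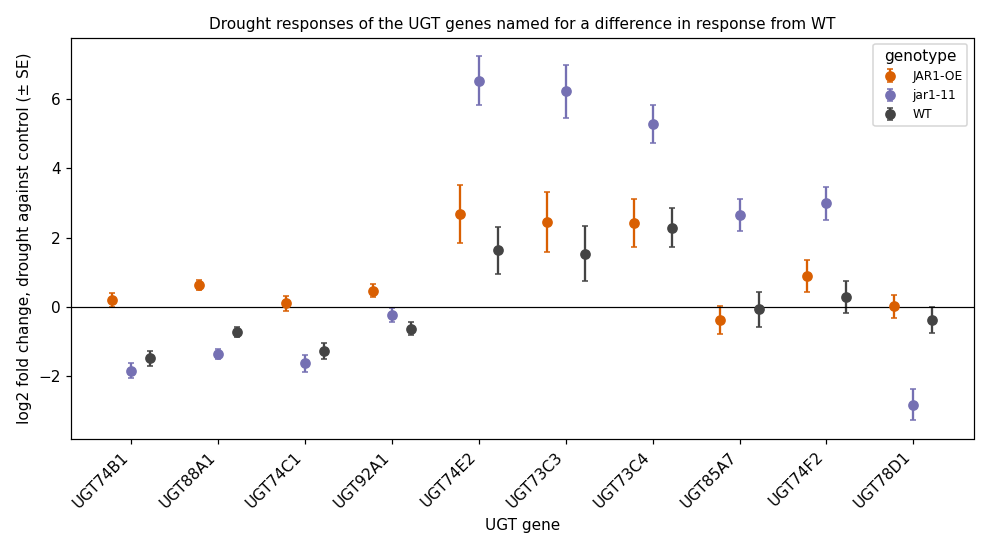
Drought response as log2 fold change ± SE, drought against control, in JAR1-OE (orange), jar1-11 (purple) and WT (dark grey), for the 10 UGT genes named for a difference from the WT response; 0 means equal levels. UGT88A1 lies above 0 in JAR1-OE and below 0 in jar1-11 and WT, and UGT74E2, UGT73C3, UGT73C4, UGT85A7 and UGT74F2 lie highest in jar1-11.

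Glycosyltransferases depend on UDP-sugars, and of 26 tested genes of their supply 3 rose and 5 fell in JAR1-OE, 11 rose and 8 fell in jar1-11, and 7 rose and 4 fell in WT. The UDP-sugar list had median log2 fold changes of 0.06 in JAR1-OE, 0.17 in jar1-11 and 0.12 in WT. Beside the UDP-sugar counts, 12.4% of all genes tested rose and 13.6% fell in JAR1-OE, 25.9% and 27.7% in jar1-11, and 16.6% and 18.8% in WT. SUS3, a sucrose synthase that makes UDP-glucose from sucrose, was at 27.1, 38.7 and 29 CPM in JAR1-OE drought libraries, against 2.61, 2.44 and 2.45 CPM in JAR1-OE control libraries (log2 fold change 3.65 ± 0.28, adjusted p = 1.74e-08). In jar1-11 SUS3 was at 425, 381 and 344 CPM under drought, against 8.02, 6.78 and 7.63 CPM under control conditions (log2 fold change 5.67 ± 0.26, adjusted p = 6.77e-12). In WT SUS3 was at 127, 185 and 258 CPM under drought, against 7.56, 4.74 and 8.22 CPM under control conditions (log2 fold change 4.79 ± 0.26, adjusted p = 7.52e-11). It rose in all 3 genotypes. RHM1, which makes the UDP-rhamnose that UGT78D1 and UGT89C1 use, rose in jar1-11 (log2 fold change 1.72 ± 0.21, adjusted p = 1.05e-06) and did not pass in JAR1-OE or WT. Glucosides can be cleaved again, and of 8 tested beta-glucosidase genes 1 rose and 1 fell in JAR1-OE, 4 rose and 2 fell in jar1-11, and 2 rose and 3 fell in WT. The beta-glucosidase list had median log2 fold changes of 0.03 in JAR1-OE, 1.03 in jar1-11 and -0.44 in WT. Beside the beta-glucosidase counts, 12.4% of all genes tested rose and 13.6% fell in JAR1-OE, 25.9% and 27.7% in jar1-11, and 16.6% and 18.8% in WT. BGLU18, which releases abscisic acid from its glucose ester, was at 4297, 4274 and 3996 CPM in JAR1-OE drought libraries, against 791, 904 and 881 CPM in JAR1-OE control libraries (log2 fold change 2.29 ± 0.48, adjusted p = 0.00139). In jar1-11 BGLU18 was at 4.06, 1.87 and 19.8 CPM under drought, against 248, 277 and 303 CPM under control conditions (log2 fold change -5.10 ± 0.57, adjusted p = 3.96e-07). In WT BGLU18 was at 1069, 572 and 264 CPM under drought, against 219, 271 and 239.7 CPM under control conditions (log2 fold change 1.38 ± 0.47, adjusted p = 0.0263). It rose in JAR1-OE and WT and fell in jar1-11, and its drought and control libraries overlapped in WT only. The highest WT drought value, 1069 CPM, belongs to library 1, the one with 41.1 CPM of flower markers, whose part was not tested. Fits with 1 library left out were not examined for BGLU18.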

How the data were processed

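RNA from whole rosette leaves was made into 18 QuantSeq libraries, which read the 3' end of transcripts, and sequenced in single reads of 50 bases, per the labels' protocols. The deposited tables hold whole-number counts of unique gene reads per gene, 1 table per library, as the authors made them, per the file headers. Not given in the sources used here: aligner, counting tool, strand setting and genome build.

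Members were found by gene name and gene lists came from general knowledge. Both were chosen with earlier results of these data known. Counts were tested with edgeR 4.0.16 in R 4.3.3: TMM scaling, 6 group means fitted over all 18 libraries, quasi-likelihood F-tests and Benjamini-Hochberg adjustment over the 19752 genes with at least 20 reads in all, at a threshold of 0.05. SEs were derived as the absolute log2 fold change over the root of F. Library totals and tests left out the YFP-JAR1 entry. A floor of 3 reads, 0.316 to 0.636 CPM in the 18 libraries, was used for groups with no reads, and intervals of pooled folds are exact binomial 95% intervals. Intervals and floors cover counting error only. Named genes were members of the acceptor lists, the members at 0 or untested, the 8 most abundant, close pairs, and per comparison up to 8 each way with the largest change among those past the threshold, where the higher group averaged at least 5 CPM and the libraries did not overlap (up to 5 for differences of response). Genes outside this rule, UGT71D2, UGT73C1, UGT76C4, UGT76E3, UGT76E4, UGT76E6, UGT79B8, UGT79B9, UGT90A2, UGT90A1's promoter, the UGT91 genes and the lists of patterns, were named after their values were seen.

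Replicates differed by more than sampling noise (chi-square per degree of freedom 5.78 to 29.9), so each library was counted as 1 replicate. On simulated counts for 19630 genes in the drought comparison of WT, edgeR found 45% of 100 genes given a 2-fold change and 88% of 100 given a 4-fold change, and 3.62% of its 138 calls were false. In the data 35.4% of the genes tested passed in that comparison, so the adjusted threshold lies at a different p-value. The simulated shares therefore do not give the recovery in the data. Alternatives were RLE size factors, filterByExpr, no filter, DESeq2 1.42.0, only the groups compared, a replicate block, no organelle genes and each library left out. Sequences and coordinates were read from RefSeq TAIR10.1 with Biopython 1.88, and all 105 members matched it by locus.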

Additional observations from a re-analysis of the deposited data

Results flagged for a closer look

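The drought response of 4 members differed between JAR1-OE and WT by the test of the difference itself (edgeR, 3 libraries a group), with a higher log2 fold change in JAR1-OE: UGT74B1 by 1.68, UGT88A1 by 1.37, UGT74C1 by 1.37 and UGT92A1 by 1.105. For jar1-11 against WT the same test gave a higher response of UGT74E2 by 4.90, UGT73C3 by 4.69, UGT73C4 by 2.99, UGT85A7 by 2.72 and UGT74F2 by 2.715. Differences of -2.46 for UGT78D1 and -0.64 for UGT88A1 had the opposite sign. Some of these calls were lost under alternative settings, as given above. They were UGT74C1 and UGT92A1 for JAR1-OE, and UGT74E2, UGT73C3, UGT73C4 and UGT88A1 for jar1-11 (adjusted p up to 0.171). Both comparisons use the same WT libraries.

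Outside the gene counts, the YFP-JAR1 entry had a pooled level of 34.6 CPM in JAR1-OE drought libraries and 28.8 CPM in JAR1-OE control libraries, against 0 reads in the other 12 libraries. By library it was at 72.6, 4.21 and 20.2 CPM under drought and 30.8, 14.7 and 37.5 CPM under control conditions, and without JAR1-OE drought 1, which holds 558 of the 731 drought reads, the pooled drought level was 12.9 CPM, below that of the control libraries.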

How the results depend on the processing

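Over 2854 values of called members under alternative settings, 2533 kept their direction and stayed past the threshold, 321 kept their direction and no longer passed, and 0 changed direction. The total includes no organelle genes, with 212 kept and 0 lost. Calls kept in every fit with 1 library left out were 2 of 11 for JAR1-OE against WT under control conditions. Under drought they were 11 of 19 for JAR1-OE and 24 of 38 for jar1-11, each against WT. For the differences of response they were 2 of 5 for JAR1-OE and 5 of 14 for jar1-11. Drought against control kept 20 of 31 in JAR1-OE, 47 of 54 in jar1-11 and 28 of 40 in WT. With the fit limited to the groups compared, JAR1-OE against WT under control conditions gave 5 members in place of 11, and the JAR1-OE minus WT response gave 3 in place of 5. DESeq2 gave 22 members in place of 14 for the jar1-11 minus WT response. The cause was not tested. Leaving out 1 library at a time gave 4 to 11 members for JAR1-OE against WT under control conditions and 13 to 24 under drought, 25 to 36 for jar1-11 against WT under drought, 3 to 8 for the JAR1-OE minus WT response and 7 to 17 for the jar1-11 minus WT response. The drought comparisons gave 24 to 29 in JAR1-OE, 50 to 53 in jar1-11 and 34 to 40 in WT. For jar1-11 against WT under drought the count of 25 was that without WT drought 1.

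The labels number drought libraries on from the control libraries, so the replicate numbers of drought libraries used here were assigned by order. They carry no known pairing of drought with control. Over 27 pairs with the same number so assigned, correlations of deviations from the group means ran from -0.415 to 0.194 (median -0.0534). A pair with different numbers, WT drought 1 and jar1-11 drought 3, reached 0.432. The block rests on the same assigned numbers. With the replicate number as a block, members called were 30 in JAR1-OE drought, 54 in jar1-11 drought, 39 in WT drought, 9 and 18 for JAR1-OE against WT under control conditions and drought, 0 and 35 for jar1-11 against WT, and 4 and 11 for the JAR1-OE and jar1-11 differences of response.

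At the floor of 3 reads, levels under 0.316 to 0.636 CPM could not be told from 0, which limits the 22 untested members and those with few reads.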
